A study of Homo sapiens with 17 samples.

Results

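The genes described are 35 genes of cholesterol synthesis, uptake and export, taken by gene symbol from the 27315 genes of the deposited expression table. All 35 were in the table, and 34 passed the filter on low values. The sterol exporter gene ABCG1 did not pass, with values from 5.11 to 5.42 where the 1st percentile of gene means, the floor of the scale, was 5.14. They were measured by RNA-seq in 786-O, an established line from a human kidney cancer of the clear cell kind, which lacks functional VHL and so keeps HIF2a (gene symbol EPAS1) stable. Every group received Cas9 and a guide RNA from a lentivirus (pLenti CRISPR-V2) and was kept under antibiotic selection as an infected population. The HIF2a experiment had the guides HIF2a sg4 and HIF2a sg6 and a scrambled guide as control, with 3 libraries each. The USP37 experiment had USP37 sg3 and USP37 sg9 with 3 libraries each, and its own scrambled-guide control with 2 libraries. USP37 is a deubiquitinase, and the series title names it as acting on HIF2a. Whether the libraries of a group are separate cultures is not in the labels, and p-values then measure only the spread between these libraries, which may be technical. In bulk RNA, fewer cells of a kind and less RNA per cell cannot be told apart.

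Cells make cholesterol from acetyl-CoA by way of mevalonate, farnesyl diphosphate and squalene. The transcription factor SREBP2 (gene SREBF2) switches these enzymes on when membrane sterol is low. SCAP carries it from the endoplasmic reticulum to the Golgi for cleavage, and the INSIG proteins hold SCAP back when sterol is plentiful. When sterol is in excess, the LXR nuclear receptors (NR1H2, NR1H3) switch on exporters such as ABCA1 and the ubiquitin ligase MYLIP, which removes lipoprotein receptors. Clear cell renal carcinoma is named for cytoplasm filled with stored lipid, cholesteryl ester included.

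All levels below are variance-stabilised and batch-corrected by the authors, and read like log2 values. They are not corrected for gene length, so levels are compared only within a gene, and differences of weakly expressed genes such as APOE are understated. In total 12484 genes were tested in a single limma model, and a gene is called at a Benjamini-Hochberg adjusted p under 0.05. The number of reads per library is unknown. Each target was lower with its own guides, with EPAS1 at -2.37 for sg4 and -1.57 for sg6 and USP37 at -0.90 for sg3 and -1.10 for sg9 (log2 change against the control, all called by limma). EPAS1 was also lower with the USP37 guides (log2 change -0.72), and USP37 was lower with the HIF2a guides (log2 change -0.44), both called by limma. All 10 renal epithelial markers were expressed (PAX8 12.18 to 12.99). Of 6 leukocyte markers only CD68 passed the filter on low values, which uses the mean over all libraries. PTPRC (up to 6.68), CD3E (up to 6.78) and LYZ (up to 6.16) were higher in single libraries. Of 5 markers of the 293T packaging line, NEFL (10.55 to 11.95) and SOX2 (5.87 to 7.67) passed, while LIN28A, LIN28B and NEFM did not exceed 6.06. The mean level of the leukocyte list was 5.75 to 6.13 over the HIF2a experiment and 5.93 to 6.47 over the USP37 experiment, highest in a USP37 control library. The fibroblast list of 3 genes, of which COL1A1 passed the filter, averaged 6.07 to 6.25 with sg4 and 5.96 to 6.15 with sg6, against 6.51 to 6.65 in the HIF2a control. The part of these lists in the results was not tested. Exons of ACAT2 (with TCP1 and SOD2), MVK (MMAB), NR1H3 (ACP2), LIPA (IFIT2), NPC1 (RMC1) and NPC2 (ISCA2) overlap protein-coding genes on the other strand. Those of IDI1 (IDI2-AS1), STARD4 (STARD4-AS1), FDPS (RUSC1-AS1), CYP51A1 (CYP51A1-AS1) and SREBF2 (SREBF2-AS1) overlap antisense genes. Exons of HMGCS1, LSS and FDFT1 overlap other noncoding genes on the other strand. On the same strand, CYP51A1 overlaps AC000120.2 (up to 1685 bases) and NPC2 overlaps MIR4709. Same-strand overlaps of TM7SF2 with VPS51 (16 bases) and APOE with AC011481.3 (19 bases) are short. HSD17B7, FDPS and CYP51A1 have pseudogene copies. The counting is not stated to use strand, so their reads may be shared.

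With the HIF2a guides, 14 of the 34 tested members were lower and 3 higher than in the scrambled control, and 17 were not called. That is 41.2% of the members lower and 8.82% higher, against 14.5% lower and 16.1% higher among all tested genes. The median log2 change was -0.17 over the members and 0.00 over all tested genes. MSMO1, INSIG1 and SCARB1 fell most, and APOE rose most.

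**Figure D1:**
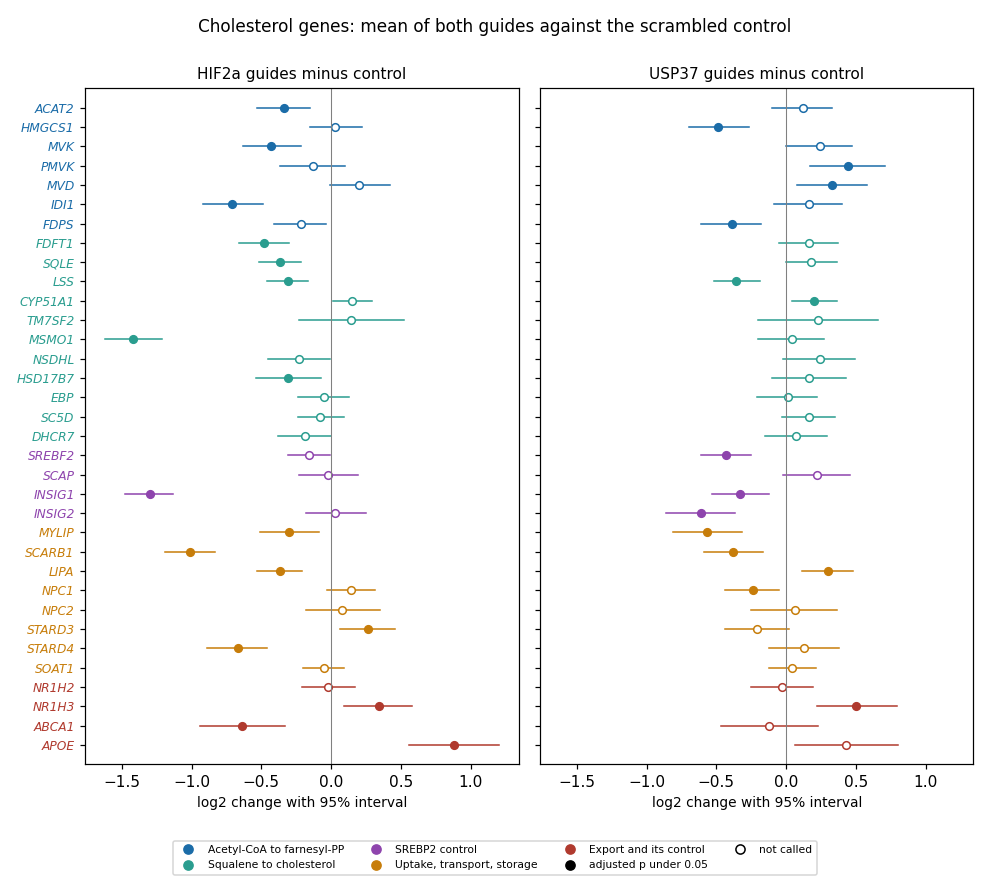
Log2 change of each tested member (rows, coloured by role) for the mean of both HIF2a guides minus their control and the mean of both USP37 guides minus theirs. Points are limma estimates, lines are 95% intervals and filled points are called. On the HIF2a side MSMO1 (-1.42), INSIG1 (-1.30) and SCARB1 (-1.01) lie farthest to the left and APOE (0.88) farthest to the right, while no member changed by 1 log2 unit on the USP37 side.

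Of the 7 member enzymes that lead from acetyl-CoA to farnesyl diphosphate, 3 were lower with the HIF2a guides and 0 higher (limma, and 0 higher at an unadjusted p under 0.05). That is 42.9% lower, against 14.5% of all tested genes. IDI1, the isomerase that interconverts the isoprene building blocks, had 9.36, 9.22 and 9.31 with sg4 and 9.72, 9.71 and 9.24 with sg6, against 10.24, 10.00 and 10.15 in the HIF2a control. The 6 guide libraries all lay below the 3 control libraries (log2 change -0.71, SE 0.10, limma adjusted p = 1.42e-05). MVK, mevalonate kinase (-0.43, SE 0.10, limma adjusted p = 0.002), and ACAT2, the thiolase that joins acetyl-CoA units (-0.34, SE 0.09, limma adjusted p = 0.00618), were lower for the mean of the guides. Both were called with sg4 (-0.74 and -0.71) and not with sg6 (-0.12 and 0.03). HMGCS1, the synthase that makes HMG-CoA and a standard SREBP2 target, had 11.36, 11.48 and 11.48 with sg4 and 11.81, 11.92 and 11.45 with sg6, against 11.64, 11.38 and 11.62 in the HIF2a control. The groups overlapped, and it was not called (0.03, SE 0.09, limma adjusted p = 0.812, 95% interval -0.15 to 0.22). PMVK (-0.13), MVD (0.20) and FDPS (-0.22) were not called for the mean of the guides either. FDPS was called lower with sg4 (-0.40), kept under all 15 alternatives. MVD was called higher with sg6 (0.38), a call lost under 5 of 15.

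Among the 11 member enzymes from squalene to cholesterol, 5 were lower and 0 higher with the HIF2a guides (limma, with 1 higher at an unadjusted p under 0.05). That is 45.5% lower, against 14.5% of all tested genes. MSMO1, the monooxygenase that starts removal of a pair of methyl groups from the sterol ring, had 9.77, 9.77 and 9.82 with sg4 and 10.28, 10.21 and 9.82 with sg6, against 11.49, 11.18 and 11.41 in the HIF2a control. All 6 guide libraries were below every control library. The log2 change was -1.42 (SE 0.10, limma adjusted p = 2.86e-10), which read as log2 is 0.375 of the control level. NSDHL (-0.23, SE 0.11, limma adjusted p = 0.102), which acts with MSMO1 in that demethylation, was not called. HSD17B7, the reductase that completes it, was lower (-0.31, SE 0.11, limma adjusted p = 0.0414), and that call was lost under 8 of 18 alternatives, among them leaving out HIF2a control library 1 or 3 (limma adjusted p = 0.24 and 0.125). The squalene synthase FDFT1 (-0.48, SE 0.09, limma adjusted p = 0.000214), the squalene epoxidase SQLE (-0.37, SE 0.07, limma adjusted p = 0.000532) and the lanosterol synthase LSS (-0.31, SE 0.07, limma adjusted p = 0.00171) fell. For SQLE and LSS the scrambled controls differed the same way, with the USP37 control minus the HIF2a control at -0.33 and -0.51. FDFT1 and LSS were called with sg4 (-0.72 and -0.68) and not with sg6 (-0.24 and 0.05). HSD17B7 was likewise called with sg4 and not with sg6. CYP51A1 (0.15), TM7SF2 (0.14), EBP (-0.05), SC5D (-0.08) and DHCR7 (-0.19) were not called for the mean of the guides. DHCR7 was called lower with sg4 (-0.51) and CYP51A1 higher with sg6 (0.34), both kept under all 15 alternatives.

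Of the 4 SREBP2 control genes, only INSIG1 was called for the mean of the HIF2a guides. That is 25% lower, against 14.5% of all tested genes. INSIG1, which retains SCAP and is itself switched on by SREBP, had 9.72, 9.79 and 9.92 with sg4 and 10.99, 10.80 and 10.73 with sg6, against 11.68, 11.67 and 11.54 in the HIF2a control. Here too all guide libraries were below all control libraries, and sg4 libraries were below sg6 libraries. Its log2 change was -1.30 (SE 0.08, limma adjusted p = 9.23e-11), or 0.405 of the control level. INSIG2, the related retention factor, had 9.21, 9.04 and 9.06 with sg4 and 8.72, 8.94 and 8.52 with sg6, against 8.97, 8.68 and 8.99 in the HIF2a control. The sg4 libraries lay above the controls and the sg6 libraries overlapped them, and the mean of the guides was not called (0.03, SE 0.10, limma adjusted p = 0.841, 95% interval -0.18 to 0.25). SREBF2 averaged 11.83 ± 0.10 with sg4 and 12.48 ± 0.08 with sg6, against 12.32 ± 0.09 in the control (SD, n = 3 each). The sg4 libraries were below every control library and the sg6 libraries above. SREBF2 was called lower with sg4 (-0.48) and not called with sg6. The mean of the guides was not called (-0.16, SE 0.07, limma adjusted p = 0.105), and neither was SCAP (-0.02).

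**Figure D2:**
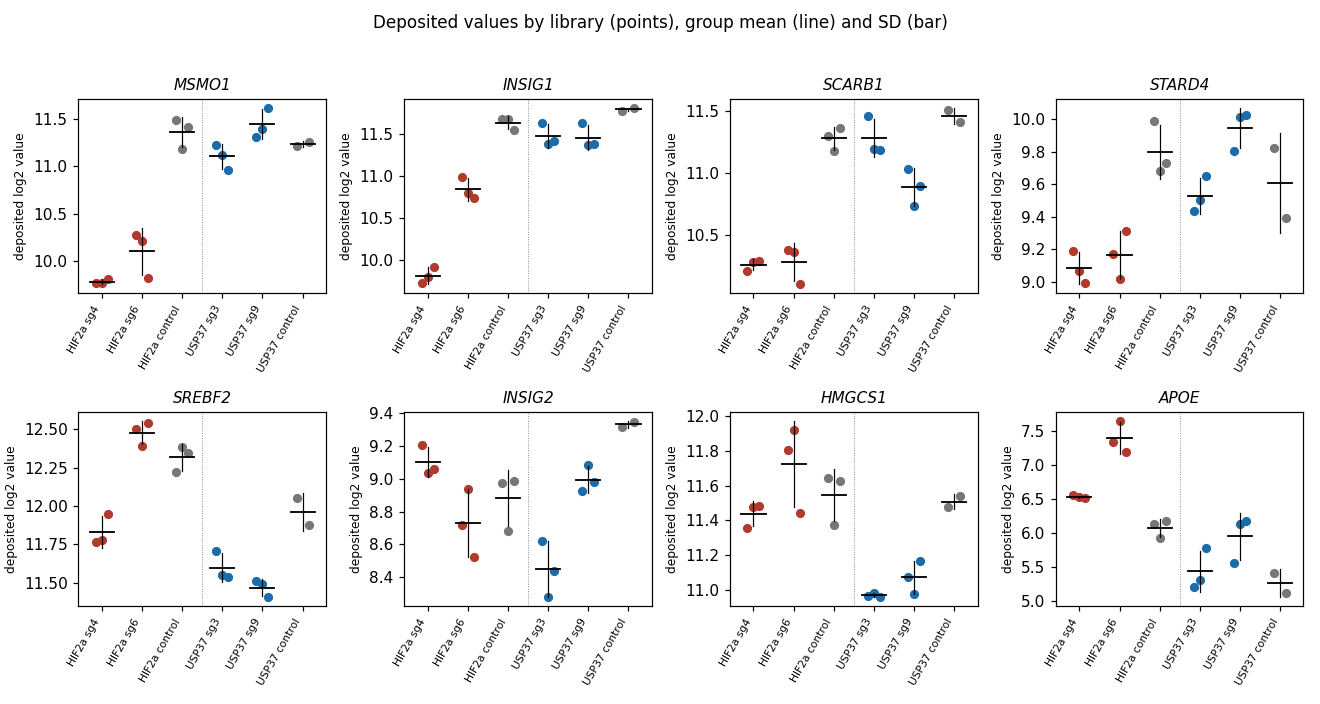
Deposited log2 values of 8 members in every library, with HIF2a guides in red, USP37 guides in blue and controls in grey. Lines are group means and bars are SD (n = 3, and n = 2 for the USP37 control). The 6 HIF2a guide libraries of MSMO1, INSIG1, SCARB1 and STARD4 lie below their 3 controls, and those of HMGCS1 do not.

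Of the 8 genes of uptake, lysosomal exit, transport and storage, 4 were lower and 1 higher. That is 50% and 12.5%, against 14.5% and 16.1% of all tested genes. SCARB1, the receptor that takes cholesteryl ester from high density lipoprotein, had 10.21, 10.28 and 10.29 with sg4 and 10.38, 10.36 and 10.10 with sg6, against 11.30, 11.18 and 11.36 in the HIF2a control. Every guide library was below every control library, and the level was 0.496 of the control (-1.01, SE 0.09, limma adjusted p = 7.67e-09). STARD4, a soluble sterol carrier, had 9.19, 9.07 and 8.99 with sg4 and 9.17, 9.02 and 9.31 with sg6, against 9.99, 9.68 and 9.73 in the HIF2a control. Its guide libraries were also all below the controls (-0.67, SE 0.10, limma adjusted p = 2.80e-05). LIPA, the lysosomal lipase that frees cholesterol from ester, was lower (-0.37, SE 0.08, limma adjusted p = 0.00104). MYLIP was lower (-0.30, SE 0.10, limma adjusted p = 0.0286), a call lost under 6 of 18 alternatives, among them the removal of HIF2a control library 3 (limma adjusted p = 0.17). STARD3, which moves sterol at late endosomes, had 9.87, 10.23 and 10.06 with sg4 and 9.97, 10.19 and 9.94 with sg6, against 9.67, 9.80 and 9.90 in the HIF2a control. The sg6 libraries were above the controls and the sg4 libraries overlapped them. It was called higher at the edge of the threshold (0.26, SE 0.10, limma adjusted p = 0.0489), and 12 of 18 alternatives ended that call. NPC1 (0.14) and NPC2 (0.08), which pass cholesterol out of the lysosome, and SOAT1 (-0.05), which esterifies it, were not called for the mean of the guides. NPC1 was called higher with sg6, a call lost under 8 of 15 alternatives.

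The export genes moved in both directions. ABCA1, which loads cholesterol onto apolipoprotein A-I, had 10.65, 10.78 and 10.85 with sg4 and 10.91, 10.36 and 11.40 with sg6, against 11.50, 11.54 and 11.35 in the HIF2a control. All sg4 libraries were below the controls, while sg6 spread over 1 log2 unit and its highest library overlapped them. The mean of the guides was lower (-0.64, SE 0.15, limma adjusted p = 0.00213). APOE, a lipoprotein component and LXR target, had 6.55, 6.52 and 6.51 with sg4 and 7.34, 7.64 and 7.19 with sg6, against 6.13, 5.92 and 6.17 in the HIF2a control. All guide libraries were above the controls, with sg6 above sg4 (0.88, SE 0.15, limma adjusted p = 0.000135). APOE was called with sg6 and not with sg4 (0.45, limma adjusted p = 0.0684). NR1H3, which encodes LXR alpha, had 7.37, 7.36 and 7.64 with sg4 and 7.41, 7.77 and 7.44 with sg6, against 7.21, 7.06 and 7.21 in the HIF2a control. All guide libraries were above the controls (0.34, SE 0.12, limma adjusted p = 0.0351), but the call was lost under 9 of 18 alternatives, among them leaving out sg6 library 2 (limma adjusted p = 0.0764) or any single HIF2a control library (limma adjusted p = 0.0639 to 0.14). NR1H3 too was called with sg6 and not with sg4 (0.29, limma adjusted p = 0.127). For APOE the 2 controls differed against the effect (USP37 over HIF2a, -0.81). NR1H2, LXR beta, was not called (-0.02).

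Promoters of 4 members are shown because their differences lead the comparisons: MSMO1, INSIG1 and STARD4 had 3 of the 4 largest differences between the 2 experiments, and SREBF2 encodes the factor itself. Each is the 250 bases before the start in RefSeq on GRCh38.p14, 5′ to 3′ on the gene's strand. Capitals mark matches, on either strand, to TCACNCCAC (sterol regulatory element core), CACGTG (palindromic E-box), ACGTG (hypoxia response element core, which CACGTG contains), CCAAT or GGGCGG (GC box).
MSMO1, chr4:165327419-165327668, plus strand: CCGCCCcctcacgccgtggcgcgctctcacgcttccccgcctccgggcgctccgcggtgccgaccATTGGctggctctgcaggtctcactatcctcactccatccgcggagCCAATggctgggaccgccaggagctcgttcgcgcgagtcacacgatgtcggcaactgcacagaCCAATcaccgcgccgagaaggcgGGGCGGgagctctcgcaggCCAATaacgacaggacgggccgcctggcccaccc
INSIG1, chr7:155297628-155297877, plus strand: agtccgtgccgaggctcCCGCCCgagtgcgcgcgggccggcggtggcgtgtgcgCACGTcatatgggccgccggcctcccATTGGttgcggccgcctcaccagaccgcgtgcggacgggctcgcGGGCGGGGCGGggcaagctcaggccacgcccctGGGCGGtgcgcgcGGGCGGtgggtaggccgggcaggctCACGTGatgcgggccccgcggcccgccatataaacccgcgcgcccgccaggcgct
STARD4, chr5:111512536-111512785, minus strand: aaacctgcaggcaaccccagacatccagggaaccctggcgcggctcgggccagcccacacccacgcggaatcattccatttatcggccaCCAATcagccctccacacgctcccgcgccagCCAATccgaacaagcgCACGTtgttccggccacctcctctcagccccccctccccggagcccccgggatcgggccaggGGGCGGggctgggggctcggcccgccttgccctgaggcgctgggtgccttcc
SREBF2, chr22:41832855-41833104, plus strand: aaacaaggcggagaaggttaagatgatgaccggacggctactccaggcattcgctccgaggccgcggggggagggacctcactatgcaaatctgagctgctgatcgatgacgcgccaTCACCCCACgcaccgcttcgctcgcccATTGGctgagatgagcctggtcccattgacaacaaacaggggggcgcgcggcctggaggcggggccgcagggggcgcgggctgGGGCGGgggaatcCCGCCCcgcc
In these lines MSMO1 holds 4 CCAAT matches and STARD4 holds 2. With positions counted back from the start, INSIG1 holds CACGTG at -55 to -50, and SREBF2 holds TCACNCCAC at -133 to -125, the only match to it among the members' windows.

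Windows of 300 bases (250 before to 50 after a start) were listed for 30 of the 35 members, in 44 windows. CCAAT was in 59.1% of the members' windows and in 34.6% of all 35116 windows. GGGCGG was in 84.1% and in 45% of all windows. TCACNCCAC was in 1 of the 44 windows (2.27%) and in 1.13% of all windows. CACGTG was in 6 windows of 5 genes (13.6%) and in 7.26% of all windows. ACGTG was in 11 windows of 9 genes (25%) and in 21.4% of all windows. Windows of the same gene can overlap, as for SC5D, and a shared site is then counted in each. A match describes letters in a window, and binding was not measured.

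The HIF2a guides differed from each other at these genes. With sg4, 17 of 34 members were lower and 0 higher than the control, or 50% against 12.1% lower and 13.2% higher among all tested genes (limma, with 3 members higher at an unadjusted p under 0.05, and 3 called higher with limma array weights). With sg6, 8 were lower and 5 higher, or 23.5% and 14.7%, against 13.8% and 15.2% of all tested genes, so its share of higher members was near the background. Without HIF2a control library 1 the sg6 count higher was 2, and without sg6 library 2 or HIF2a control library 2 or 3 it was 3. The 8 members lower with both guides were IDI1, SQLE, MSMO1, INSIG1, STARD4, ABCA1, SCARB1 and LIPA, and none was called higher with both. The guides share a control, and the share of all tested genes called with both was not counted. SQLE with sg6 (-0.26, SE 0.08, limma adjusted p = 0.0275) was not called under 8 alternatives, among them leaving out sg6 library 2 or 3 or HIF2a control library 2 (limma adjusted p = 0.0547 to 0.135). LIPA with sg4 was not called without HIF2a control library 1 (limma adjusted p = 0.066). ABCA1 with sg6 (-0.57, SE 0.17, limma adjusted p = 0.0146) was not called without sg6 library 2 or without HIF2a control library 1 (limma adjusted p = 0.0896 and 0.0508).

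Set directly against each other, 11 members were higher with sg6 than with sg4 and 1 lower, or 32.4% and 2.94%, against 4.86% and 4.36% of all tested genes. INSIG1 was 10.99, 10.80 and 10.73 with sg6, against 9.72, 9.79 and 9.92 with sg4 (difference 1.03, SE 0.10, limma adjusted p = 1.45e-06). SREBF2 was 12.50, 12.39 and 12.54 with sg6, against 11.77, 11.78 and 11.95 with sg4 (difference 0.65, SE 0.09, limma adjusted p = 4.65e-05). In both genes all sg6 libraries lay above all sg4 libraries. APOE (0.86), LSS (0.74), ACAT2 (0.73), DHCR7 (0.64), MVK (0.62), FDFT1 (0.48), SCAP (0.45), CYP51A1 (0.38) and FDPS (0.35) were higher with sg6 as well (limma adjusted p from 6.53e-06 to 0.0371). Of these, FDPS was not called under 9 of 15 alternatives, SCAP under 5 and APOE under 1. INSIG2 was the member lower with sg6 (-0.37, SE 0.12, limma adjusted p = 0.0493), a call lost under 12 of 15 alternatives, among them each sg4 library left out and sg6 library 1 or 3 left out (limma adjusted p = 0.104 to 0.205). EPAS1 itself was higher with sg6 than with sg4 (difference 0.81, limma adjusted p = 0.000154), and its part in these differences was not tested. SCARB1 (difference 0.02, SE 0.10, limma adjusted p = 0.928), STARD4 (0.08) and LIPA (-0.08) were not called between the guides, and the 95% interval for SCARB1 was -0.19 to 0.23.

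**Figure D3:**
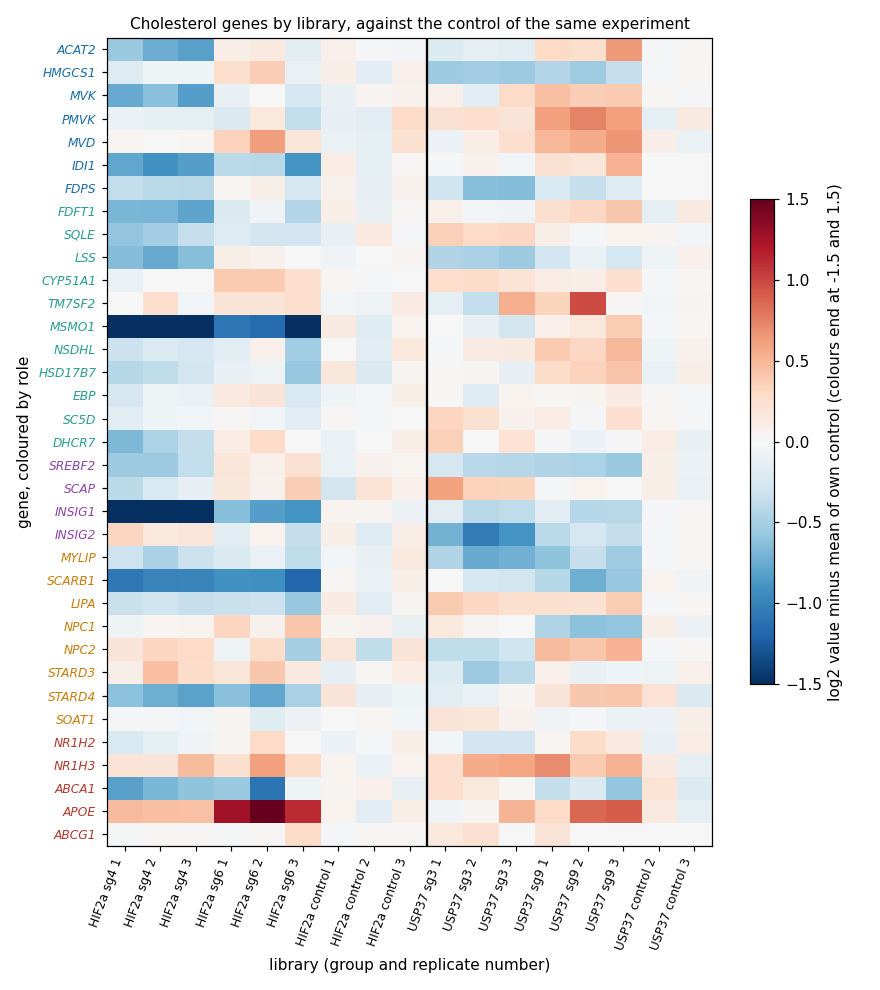
Each member (rows, coloured by role) in each library (columns), as the deposited log2 value minus the mean of the control of its own experiment. Differences past -1.5 or 1.5 take the end colour. The darkest blue cells are MSMO1 and INSIG1 in HIF2a libraries, and sg4 libraries are bluer than sg6 libraries over most synthesis enzymes. In the USP37 experiment sg3 and sg9 differ at INSIG2, NPC1 and NPC2.

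With the USP37 guides, 9 members were lower and 5 higher than their control, and 20 were not called. These shares, 26.5% and 14.7%, stand against 21.9% lower and 22.4% higher among all tested genes, so the number lower was near the background. The median log2 change was 0.09 over the members and 0.01 over all tested genes. Of the 4 genes that encode or control SREBP2, 3 were lower, and the synthesis enzymes were split. The USP37 control has 2 libraries, and without library 2 or 3 of it the members called numbered 8 or 7 in place of 14. Members higher numbered 2 or 1 without those libraries and 3 without sg9 library 3, in place of 5. A fit with fewer libraries has less power for every gene, and the share of all tested genes called in it was not set beside these counts. HMGCS1, FDPS, SREBF2, INSIG2 and MYLIP remained called for the mean of the guides under each of 17 alternatives.

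Lower in the SREBP2 control group for the mean of the guides were INSIG2, SREBF2 and INSIG1, with 0 of the 4 higher (limma, and 0 higher at an unadjusted p under 0.05). That is 75% lower, against 21.9% of all tested genes. INSIG2 had 8.62, 8.28 and 8.44 with sg3 and 8.92, 9.08 and 8.98 with sg9, against 9.32 and 9.35 in the USP37 control. All guide libraries were below both controls (-0.61, SE 0.12, limma adjusted p = 0.000307), and sg3 was below sg9. SREBF2 had 11.71, 11.55 and 11.54 with sg3 and 11.51, 11.49 and 11.40 with sg9, against 12.05 and 11.87 in the USP37 control, again with every guide library below both controls (-0.43, SE 0.09, limma adjusted p = 0.000408). INSIG1 had 11.63, 11.37 and 11.41 with sg3 and 11.62, 11.36 and 11.37 with sg9, against 11.77 and 11.80 in the USP37 control. Its guide libraries were also below the controls (-0.33, SE 0.10, limma adjusted p = 0.01), but the call was lost without USP37 control library 2 or 3 (limma adjusted p = 0.0621 and 0.083). SCAP was not called for the mean of the guides (0.22). Its sg3 libraries lay above both controls, and it was called higher with sg3 (0.43), a call kept under 12 of 14 alternatives. Its sg9 libraries overlapped the controls. For INSIG2 the USP37 control was higher than the HIF2a control (0.45), in the direction of the effect, and for SREBF2 it was lower (-0.35).

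Among the 18 synthesis enzymes 3 were lower and 3 higher with the USP37 guides, or 16.7% each way. Among all tested genes 21.9% were lower and 22.4% higher, so neither count exceeded the background. HMGCS1 had 10.97, 10.99 and 10.96 with sg3 and 11.07, 10.98 and 11.17 with sg9, against 11.48 and 11.54 in the USP37 control. No guide library reached the controls (-0.49, SE 0.10, limma adjusted p = 0.000803). FDPS, which makes farnesyl diphosphate (-0.39, SE 0.10, limma adjusted p = 0.00421), and LSS (-0.36, SE 0.08, limma adjusted p = 0.00144) fell too, the LSS call being lost without USP37 control library 3 (limma adjusted p = 0.0541). The phosphomevalonate kinase PMVK had 8.85, 8.87 and 8.81 with sg3 and 9.23, 9.36 and 9.24 with sg9, against 8.49 and 8.74 in the USP37 control. All guide libraries were above both controls (0.44, SE 0.13, limma adjusted p = 0.00849), and PMVK was not called without USP37 control library 2 (limma adjusted p = 0.172). MVD, the decarboxylase after it, had 8.95, 9.13 and 9.28 with sg3 and 9.54, 9.59 and 9.69 with sg9, against 9.13 and 8.94 in the USP37 control. The sg9 libraries were above the controls and the sg3 libraries overlapped them (0.33, SE 0.12, limma adjusted p = 0.0297). The MVD call was lost without USP37 control library 3 (limma adjusted p = 0.28), sg3 library 3 (limma adjusted p = 0.0617) or sg9 library 3 (limma adjusted p = 0.053). CYP51A1, the lanosterol demethylase, was at the edge of the threshold (0.20, SE 0.08, limma adjusted p = 0.0401), and 9 of 17 alternatives ended the call. MSMO1 had 11.23, 11.12 and 10.97 with sg3 and 11.31, 11.40 and 11.62 with sg9, against 11.21 and 11.26 in the USP37 control. The sg9 libraries lay above the controls and the sg3 libraries overlapped them, and MSMO1 was not called (0.04, SE 0.11, limma adjusted p = 0.816, 95% interval -0.20 to 0.27). The other 11 enzymes were not called for the mean of the guides, with log2 changes from 0.01 for EBP to 0.24 for MVK and NSDHL. Of these, ACAT2 had sg3 libraries (10.81 to 10.86) below both controls (10.99 and 11.02) and sg9 libraries (11.27 to 11.65) above them. ACAT2, MVK, FDFT1 and NSDHL were called higher with sg9 and SQLE with sg3, each call being lost under at least 1 of 14 alternatives.

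Uptake and transport genes gave 3 lower and 1 higher of 8 with the USP37 guides. That is 37.5% and 12.5%, against 21.9% and 22.4% of all tested genes. MYLIP had 7.66, 7.36 and 7.39 with sg3 and 7.51, 7.77 and 7.57 with sg9, against 8.10 and 8.12 in the USP37 control. The guide libraries were all below the controls (-0.57, SE 0.12, limma adjusted p = 0.000615). SCARB1 had 11.46, 11.19 and 11.19 with sg3 and 11.04, 10.73 and 10.89 with sg9, against 11.51 and 11.41 in the USP37 control. Libraries of sg9 lay below the controls and those of sg3 overlapped them, and the mean was lower (-0.38, SE 0.10, limma adjusted p = 0.00458). Without USP37 control library 2 SCARB1 was not called (limma adjusted p = 0.0756). LIPA was higher (0.30, SE 0.09, limma adjusted p = 0.0114), and that call was lost without either USP37 control library (limma adjusted p = 0.0936 and 0.0648). NPC1 was lower for the mean of the guides (-0.24, SE 0.09, limma adjusted p = 0.0415), a call that 8 of 17 alternatives ended. Among them was each USP37 control library left out (log2 change -0.16 and -0.33). Its sg3 libraries (11.73 to 11.89) overlapped the controls (11.65 and 11.82), and NPC1 was not called with sg3. Its sg9 libraries (11.12 to 11.28) lay below the controls, and the call with sg9 was kept under all 14 alternatives. STARD4 had 9.44, 9.50 and 9.65 with sg3 and 9.81, 10.01 and 10.02 with sg9, against 9.82 and 9.39 in the USP37 control. The groups overlapped, and STARD4 was not called for the mean of the guides (0.13, SE 0.12, limma adjusted p = 0.385, 95% interval -0.12 to 0.38). It was called higher with sg9, a call lost under 5 of 14 alternatives. STARD3 had 9.36, 9.02 and 9.16 with sg3 and 9.64, 9.46 and 9.51 with sg9, against 9.49 and 9.64 in the USP37 control and was not called (-0.21, SE 0.11, limma adjusted p = 0.137), the sg3 libraries alone lying below both controls. STARD3 was called lower with sg3, a call lost under 3 of 14 alternatives. NPC2 (0.06) and SOAT1 (0.04) were not called for the mean of the guides. For NPC2 the sg3 libraries (10.70 to 10.78) lay below both controls (11.06 and 11.10). Its sg9 libraries (11.50 to 11.60) lay above them, and it was called higher with sg9, a call lost under 3 of 14 alternatives.

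In the export group NR1H3 was the 1 member of 4 tested that was called for the mean of the guides. That is 25% higher, against 22.4% of all tested genes. It had 7.36, 7.66 and 7.70 with sg3 and 7.81, 7.50 and 7.63 with sg9, against 7.24 and 6.97 in the USP37 control. All guide libraries were above both controls (0.50, SE 0.14, limma adjusted p = 0.00511), and without USP37 control library 3 it was not called (limma adjusted p = 0.12). NR1H3 was thus the 1 member called higher in both experiments. ABCA1 had 11.46, 11.36 and 11.23 with sg3 and 10.84, 10.98 and 10.61 with sg9, against 11.41 and 10.99 in the USP37 control and was not called (-0.12, SE 0.17, limma adjusted p = 0.588). Its sg9 libraries lay below the controls and its sg3 libraries overlapped them. APOE had 5.21, 5.31 and 5.78 with sg3 and 5.55, 6.13 and 6.17 with sg9, against 5.42 and 5.12 in the USP37 control and was not called for the mean of the guides (0.43, SE 0.18, limma adjusted p = 0.056), with the sg9 libraries above the controls and the sg3 libraries overlapping them. APOE was called higher with sg9, a call lost under 1 of 13 alternatives. NR1H2 was not called (-0.03).

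Between the USP37 guides, 17 members were higher with sg9 than with sg3 and 5 lower, or 50% and 14.7%, against 16.6% and 14.2% of all tested genes. Of the 18 synthesis enzymes, 11 were higher with sg9 and 1, SQLE (-0.28), was lower, or 61.1% and 5.56%. The 11 became 4 without sg3 library 2, 5 without sg9 library 2 or 3, 6 without sg3 library 3, 7 without sg3 library 1 or sg9 library 1, and 6 with replicate number as a term in the fit. SQLE was not called without sg3 library 1 or sg9 library 2. ACAT2 (0.58) and MVD (0.48) had the largest differences among the enzymes, and both calls were kept under all 15 alternatives. NPC2 was 11.55 ± 0.05 with sg9, against 10.73 ± 0.05 with sg3 (difference 0.83, SE 0.15, limma adjusted p = 0.000395). NPC1, its partner, went the other way, at 11.18 ± 0.09 with sg9, against 11.80 ± 0.08 with sg3 (SD, n = 3 each, difference -0.61, SE 0.09, limma adjusted p = 0.00011). INSIG2 was higher with sg9 (0.55), and ABCA1 (-0.54), SCAP (-0.42) and SCARB1 (-0.39) were lower. The ABCA1 call was lost without sg3 library 1 or 2 or sg9 library 3 (limma adjusted p = 0.0573 to 0.0983), and that of SCAP without sg3 library 1 (limma adjusted p = 0.0671). Without sg3 library 2 the count was 12 in place of 22, and without sg3 library 1, sg9 library 2 or sg9 library 3 it was 13, 13 and 14. Those higher with sg9 numbered 7 to 12 and those lower 2 to 6 as each guide library was left out in turn, the fewest lower (2) without sg3 library 1. USP37 mRNA was not called between the guides (difference -0.20, limma adjusted p = 0.304).

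**Figure D4:**
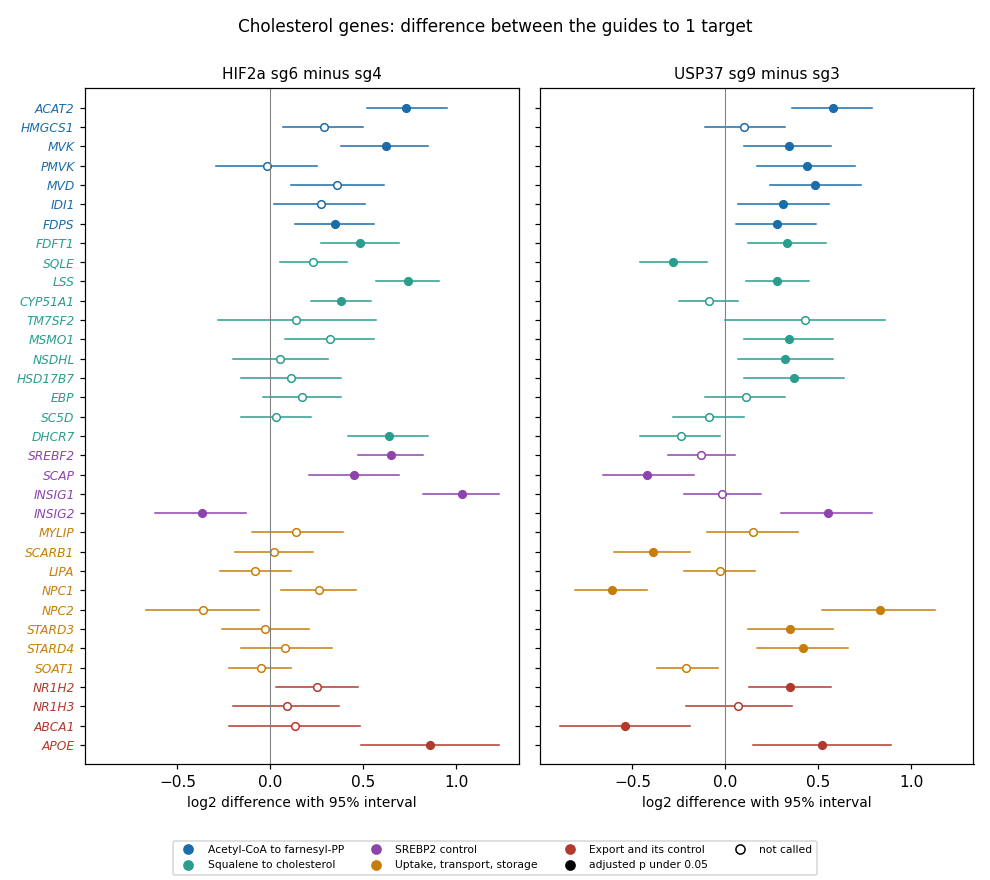
Log2 difference of each tested member between the guides to 1 target, sg6 minus sg4 for HIF2a and sg9 minus sg3 for USP37. Points are limma estimates, lines 95% intervals and filled points called. INSIG1 (1.03) is the largest difference between the HIF2a guides, and NPC2 (0.83) and NPC1 (-0.61) lie at the ends for the USP37 guides.

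Against its own control, sg3 gave 8 members lower and 5 higher, or 23.5% and 14.7%, with 18.4% and 16.8% of all tested genes. The count higher was 0 without USP37 control library 3, 3 without control library 2 or sg3 library 2, and 2 without sg3 library 1 (limma). For sg9, 7 were lower and 11 higher, or 20.6% and 32.4%, with 23.2% and 24.6% of all tested genes. Without USP37 control library 2 or 3 the sg9 count higher was 5, and without sg9 library 3 it was 7. Lower with both guides were HMGCS1, INSIG1, INSIG2, SREBF2 and MYLIP, and higher with both were NR1H3 and LIPA. These guides share a control too, and the share of all tested genes called with both was not counted. HMGCS1 and MYLIP kept the call with each guide under all 14 alternatives. INSIG1 and LIPA lost it under 4 with each guide, INSIG2 under 5 with sg9, SREBF2 under 1 with sg3, and NR1H3 under 3 with sg3 and 1 with sg9. Among these, INSIG2 with sg9 was not called without USP37 control library 2 or 3 (limma adjusted p = 0.116 and 0.147).

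The experiments were then compared through the difference of their effects, which uses separate controls. For 13 members the USP37 effect was above the HIF2a effect and for 4 below it, or 38.2% and 11.8%, against 19.6% and 19.0% of all tested genes. MSMO1 changed by 0.04 with the USP37 guides and by -1.42 with the HIF2a guides (difference 1.45, SE 0.15, limma adjusted p = 2.51e-07). INSIG1 was called lower in both experiments, at -0.33 with the USP37 guides and -1.30 with the HIF2a guides (difference 0.98, SE 0.13, limma adjusted p = 5.63e-06). IDI1 changed by 0.16 with the USP37 guides and by -0.71 with the HIF2a guides (difference 0.86, SE 0.16, limma adjusted p = 0.000196). In the USP37 experiment it had 10.40, 10.49 and 10.39 with sg3 and 10.66, 10.61 and 10.96 with sg9, against 10.44 and 10.42 in the USP37 control, with the sg9 libraries above the controls and the sg3 libraries overlapping them. LIPA was the 1 member called in opposite directions (0.30 with the USP37 guides and -0.37 with the HIF2a guides), and its controls differed by 0.60. Below the HIF2a effect were INSIG2 (difference -0.64, SE 0.16, limma adjusted p = 0.00266), HMGCS1 (-0.52, SE 0.14, limma adjusted p = 0.00519), STARD3 (-0.46, SE 0.15, limma adjusted p = 0.0169) and NPC1 (-0.38, SE 0.12, limma adjusted p = 0.0206). LSS, INSIG1, MYLIP and SCARB1 were called lower in both experiments, and the share of all tested genes called in both was not counted.

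The scrambled controls themselves differed at 18 of 34 members. The USP37 control was above the HIF2a control at 9 and below it at 9, or 26.5% each way, against 20.1% higher and 20.4% lower among all tested genes. TM7SF2 (-0.88), APOE (-0.81), SCAP (-0.74) and MVD (-0.74) were lower in the USP37 control, and FDPS (0.77) and LIPA (0.60) higher. Control and experiment cannot be told apart in this comparison. Of the 17 members called with the HIF2a guides, the controls were not called as different at 11, differed in the direction of the effect (guides and the other control on the same side of the control used) at SQLE and LSS, and differed against it at HSD17B7, ACAT2, APOE and LIPA. Of the 14 called with the USP37 guides, they differed in the direction of the effect at MVD, FDPS, INSIG2 and NPC1 and against it at LSS, CYP51A1, SREBF2 and LIPA. Without USP37 control library 3 the members called between the controls numbered 10, with 5 each way, and without HIF2a control library 2 those higher numbered 5.

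A further list of 35 genes of the same pathways, outside the members, had 28 tested. Like the members, it was chosen with earlier results of these data known, so its shares are no independent support. With the HIF2a guides 8 were higher and 1 lower, or 28.6% and 3.57%, against 16.1% and 14.5% of all tested genes. CYP7B1, an oxysterol hydroxylase (0.56), GRAMD1A, which carries sterol from the plasma membrane (0.49), and ERLIN2, which takes part in sterol-dependent protein breakdown (0.40), rose most, and the lipoprotein receptor LRP8 fell (-0.35). With the USP37 guides 12 were lower and 4 higher, or 42.9% and 14.3%, against 21.9% and 22.4% of all tested genes. GRAMD1C (-0.90), the lipoprotein receptor VLDLR (-0.79), the sterol reductase LBR (-0.75) and GRAMD1A (-0.62) fell most. LRP8 (-0.57), SP1 (-0.55), GGPS1 (-0.53) and LPCAT3 (-0.41) fell too. So did the site proteases of SREBP, MBTPS1 (-0.35) and MBTPS2 (-0.33), and OSBPL9 (-0.31) and RNF139 (-0.30). NCEH1, a cholesteryl ester hydrolase (1.37), UBE2G2 (0.43), FAF2 (0.41) and ERLIN1 (0.37) rose. Limma adjusted p-values of these named genes ran from 1.18e-09 to 0.0146.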

How the data were processed

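The authors deposited a single table of log2-scale variance-stabilised values, corrected for batch, for 27315 genes in 17 libraries. Per the submitters' processing notes, cutadapt, STAR 2.5.2b, Salmon, DESeq2 and the build hg19 were used, with no role or order given, and the batch variable is not given in the sources used here. For every gene the means over libraries numbered 1, 2 and 3 were equal (to within 6.4e-14), so a replicate term had been removed, and p-values from 11 residual degrees of freedom tend to be too small (9 with that term in the fit). The USP37 control has no library numbered 1, so making these means equal may also have shifted estimates that use that control. Depth cannot be recovered.

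Genes were tested if their mean exceeded 6.14, which is 1 log2 unit over the 1st percentile (5.14). Group means were fitted with limma (3.58.1, under R version 4.3.3) using trended empirical Bayes variances, and Benjamini-Hochberg adjustment ran over all 12484 genes of a contrast. Members and lists were chosen with earlier results of these data known. Named genes are all members, with values in every library for the 3 largest rises and falls per experiment, the 3 largest differences between experiments in each direction and SREBF2, INSIG1, INSIG2, HMGCS1, ABCA1, NR1H3 and STARD4. Promoters are RefSeq sequences matched by symbol. Alternatives were no filter, a stricter filter, quantile normalization, library medians subtracted, a replicate block, each experiment alone, array weights, no trend, and libraries left out.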

Additional observations from a re-analysis of the deposited data

Results flagged for a closer look

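The effect of the USP37 guides and that of the HIF2a guides differed by the test of the difference itself at 17 members (limma adjusted p under 0.05 over all tested genes). The USP37 effect was above the HIF2a effect at 38.2% of the members and below it at 11.8%. Among all tested genes these shares were 19.6% and 19.0%. Each value is the USP37 effect minus the HIF2a effect on the log2 scale. MSMO1 (1.45) and INSIG1 (0.98) had the largest positive differences, followed by IDI1 (0.86) and STARD4 (0.81). LIPA and MVK (0.66 each), FDFT1 (0.64) and SCARB1 (0.63) came next. PMVK (0.58), SQLE (0.55), HSD17B7 and NSDHL (0.47 each) and ACAT2 (0.46) were smaller. The difference was negative at INSIG2 (-0.64), HMGCS1 (-0.52), STARD3 (-0.46) and NPC1 (-0.38). The scrambled controls were called as different at LIPA, SQLE, HSD17B7, ACAT2, INSIG2 and NPC1 of these 17, and the part of that in the differences was not tested. The calls at ACAT2, HSD17B7, NPC1, NSDHL, PMVK and STARD3 were each lost under at least 1 of 25 alternatives, and the other 11 were kept under all of them. Groups of 3 libraries or fewer are too small for a test of single outlying libraries.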

How the results depend on the processing

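No called member changed direction under any alternative. Of the members called, 13 of 17 for the HIF2a guides, 5 of 14 for the USP37 guides, 8 of 12 for sg6 against sg4, 6 of 22 for sg9 against sg3, 11 of 17 for the difference of effects and 10 of 18 for the controls kept their calls under all alternatives run. Members higher with the HIF2a guides numbered 1 in place of 3 with no filter, with quantile normalization, with the replicate block and when 3 libraries set apart in an earlier look at these data were dropped (sg6 libraries 2 and 3 and HIF2a control library 2). Members lower with sg6 than with sg4 numbered 0 in place of 1 with no filter, library medians subtracted, the replicate block, each experiment fitted alone, array weights, no trend, and without those 3 libraries. The cause of these shifts was not tested. Leaving out a library lowers the power for every gene, and shares of all tested genes called in those fits are not given here. With 1 library left out in turn, counts ran as follows. HIF2a guides: 13 to 17 called, 1 to 3 higher and 12 to 16 lower. USP37 guides: 7 to 15 called, 1 to 6 higher and 6 to 9 lower. For sg6 against sg4 they ran from 9 to 14 called, 9 to 14 higher and 0 to 2 lower, and for sg9 against sg3 from 12 to 17 called, 7 to 12 higher and 2 to 6 lower. For the difference of effects they ran from 13 to 18 called, 10 to 14 higher and 3 to 5 lower. For the controls they ran from 10 to 19 called, 5 to 9 higher and 5 to 11 lower. Where a USP37 control library was left out, the spread of the remaining one was taken from the other groups. With the replicate block the called members numbered 13 for the HIF2a guides, 14 for the USP37 guides, 11 for sg6 against sg4, 17 for sg9 against sg3, 16 for the difference of effects and 17 for the controls. It ended the calls of HSD17B7, MYLIP, NR1H3 and STARD3 for the HIF2a guides, CYP51A1 for the USP37 guides, and FDPS, HSD17B7, IDI1, MVK and NSDHL for sg9 against sg3 (limma adjusted p = 0.0522 to 0.0777). Same-numbered libraries of different groups had correlations of deviations from -0.55 to 0.22, with 6 of 40 pairs over 0.1. Since a replicate term had been removed from the values, this check cannot show whether the numbers pair the samples, and the labels do not say. Array weights stopped short of full convergence. The unknown depth limits what can be said of weakly expressed members, ABCG1 and APOE first.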
